A study of Mus musculus with 3 samples.

Results

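Complement is a cascade of plasma and cell-surface proteins that tags microbes, dying cells and debris. The genes described here encode the C1q chains, which recognise targets and open the classical pathway, factor B (Cfb) of the alternative pathway, the receptor C3ar1, and the inhibitors Serping1 and Cd55. The members were every probe set whose annotated symbol was exactly 1 of 9 listed complement genes. The rule took in 7 of these genes with 11 probe sets, out of 12394 genes with 20393 probe sets that carry a single gene name. Neither C4b nor C3 gave a member. The probe set of C4b also carried the name of its neighbour and near-copy C4a, and C3 was not analysed here.

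Expression was measured on 3 arrays, each from 1 sample of normal muscle, called muscle 1, muscle 2 and muscle 3. The samples were labelled as littermate control tissue from mice 3 to 6 weeks old, and served as the normal counterpart of tumours derived from Pax7-positive satellite cells. The labels describe a hindlimb injection of 4-hydroxytamoxifen for tumour induction without stating whether the littermates received it, and they give neither a strain nor the muscle that was taken. No tumour was analysed here, and the values describe the normal samples alone. It is not stated that the 3 samples came from different animals, and the SDs and p-values then cover the spread between these samples only, part or all of which may be technical.

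All levels are log2 RMA values, on which a difference of 1 is a 2-fold difference. Array precision is limited by the number of arrays. A transcript was called above background in a muscle when its probe set exceeded a limit set at the 95th percentile of 88 probe sets for 59 genes typical of other organs. Muscles 1, 2 and 3 had background levels of 5.83, 5.87 and 6.01. By construction some such genes lie above it, and 3 of the 59 did so in all 3 muscles. Binding strength varies from probe set to probe set, and no gene's level is ranked here against another's. All 15 measured genes of muscle fibres had a probe set above background in every muscle, against 58.5% of all genes. This count cannot check the muscle label, since all 16 measured fibroblast genes were above background in every muscle too.

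C1q is made largely by macrophages and related myeloid cells, whereas most other circulating complement proteins come from the liver. In muscle, macrophages lie in the connective tissue between fibres, and complement marks damaged fibres for clearance. The inhibitors are expressed more widely. Serping1 blocks the proteases that C1q activates, and Cd55, also called decay-accelerating factor, takes apart the enzymes that cleave the central components.

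The genes C1qb, C1qc and C1qa lie side by side in that order on mouse chromosome 4, with no other protein-coding gene between them in RefSeq. Promoter sequences from RefSeq (GRCm38.p6) were at hand for 4 of the 7 genes. The stretches before the start sites of C1qb, C1qc and C3ar1 are shown because all 3 are genes of macrophages, and they differed in whether the muscles showed them. Each run is 250 bases, written 5′ to 3′ on the strand of the gene, which is the minus strand in every case. The windows are chr4:136886201-136886450 for C1qb, chr4:136892915-136893164 for C1qc and chr6:122856158-122856407 for C3ar1. Capitals mark ACTTCCT, the reverse complement of AGGAAGT, a sequence of the kind bound by ETS factors such as the myeloid factor PU.1.
C1qb: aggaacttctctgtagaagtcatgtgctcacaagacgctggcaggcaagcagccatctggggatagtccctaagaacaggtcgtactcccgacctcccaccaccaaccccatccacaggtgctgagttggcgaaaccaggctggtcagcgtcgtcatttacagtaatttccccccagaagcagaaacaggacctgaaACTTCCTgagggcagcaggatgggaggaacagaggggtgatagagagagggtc
C1qc: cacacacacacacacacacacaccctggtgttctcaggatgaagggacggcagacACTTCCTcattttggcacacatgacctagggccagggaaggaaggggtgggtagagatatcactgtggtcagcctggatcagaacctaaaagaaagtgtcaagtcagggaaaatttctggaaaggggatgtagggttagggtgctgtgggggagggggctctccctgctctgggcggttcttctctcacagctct
C3ar1: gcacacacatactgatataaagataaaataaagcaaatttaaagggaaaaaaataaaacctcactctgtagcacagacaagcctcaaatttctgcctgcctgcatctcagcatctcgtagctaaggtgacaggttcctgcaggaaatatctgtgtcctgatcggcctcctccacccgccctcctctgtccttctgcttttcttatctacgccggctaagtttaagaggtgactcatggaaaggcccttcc
On both strands together, AGGAAGT occurred 1 time in the window of C1qb and 1 time in that of C1qc, and these letters were not in the window of C3ar1. They were also not in that of Cd55, which had a probe set above background and whose sequence is not shown. In these windows, presence of the letters therefore did not follow detection. Unlike those of C1qb and C3ar1, the Cd55 window lies well inside the span of its gene in RefSeq, and it may not be the main promoter. The motif was chosen after the sequences had been read. AGGAAGT was found in 7.69% of 32851 mouse promoter windows of the same length, and a match describes the letters only. The letters TGANTCA (N is any base), TATAAA and GGGCGG were also counted. C3ar1 had 1 of each, C1qc had 1 GGGCGG, Cd55 had 2 GGGCGG, and C1qb had none of them. In that order, their shares over the same windows were 6.75%, 12.4% and 32.7%.

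All 3 C1q genes were above background in every muscle, by all 5 of their probe sets. C1qa, the A chain, was at 8.35, 8.42 and 8.18 in muscles 1, 2 and 3, a mean of 8.32 ± 0.13 (SD, n = 3). C1qc, the C chain, was at 7.80, 7.74 and 7.75 in muscles 1, 2 and 3, with a mean of 7.76 ± 0.04 (SD, n = 3). For C1qa the lowest sample was muscle 3, and for C1qc the 3 samples spanned only 1.05-fold.

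The B chain gene C1qb was measured by 3 probe sets. The first, 1417063_at, gave 7.79, 7.68 and 7.71 in muscles 1, 2 and 3 (mean 7.73 ± 0.05, SD, n = 3). The second, 1434366_x_at, gave 7.70, 7.86 and 7.72 (mean 7.76 ± 0.09). The remaining one, 1437726_x_at, gave 7.22, 7.48 and 7.07 (mean 7.25 ± 0.21). These probe sets of the same transcript did not order the muscles alike: muscle 1 was highest by the first and muscle 2 by the others. Their means differed by up to 0.51, which is more than the range between muscles for any of the 3. The suffix _x_at marks probe sets with probes that may also bind other transcripts, and the widest range, 0.41, belonged to such a probe set.

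The inhibitor Serping1 was also well above background. Its single probe set was at 9.85, 9.83 and 9.75 in muscles 1, 2 and 3, a mean of 9.81 ± 0.05 (SD, n = 3). This was 4.03, 3.96 and 3.74 above the background level of the same muscle. The samples lay within 1.07-fold of each other.

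Cd55 had 1 probe set above background and 1 below it in all 3 muscles. Probe set 1418762_at was at 6.54, 7.15 and 6.70 in muscles 1, 2 and 3, with a mean of 6.80 ± 0.31 (SD, n = 3). Muscle 2 was the high sample, and the range of 0.61, or 1.52-fold, was the widest of the members above background. Probe set 1460242_at, annotated to the same RefSeq transcript, was at 4.78, 4.71 and 4.98 in muscles 1, 2 and 3. Since it was below background throughout, it gives no order of the muscles. That Cd55 was called above background therefore rests on 1418762_at alone. Its neighbour Cd55b, a near-copy of the gene, was below background at 3.02 ± 0.03 (SD, n = 3), and a probe set that carries both names was at 2.44 ± 0.04.

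Factor B and the receptor were below background. Cfb, the protease of the alternative pathway, was at 5.46, 5.26 and 5.21 in muscles 1, 2 and 3, which is -0.37, -0.61 and -0.81 relative to the background level of the same muscle. C3ar1, the receptor through which a cleavage product of the central component acts on myeloid cells, had 2 probe sets. By 1419482_at it was at 4.36, 4.38 and 4.71 in muscles 1, 2 and 3, and by 1419483_at at 4.21, 4.53 and 4.62. Relative to background these levels ran from -1.62 to -1.31. Since both probe sets were below background throughout, they give no order of the muscles. A level below background does not show that a gene was silent in some of the cells of the tissue.

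**Figure D1:**
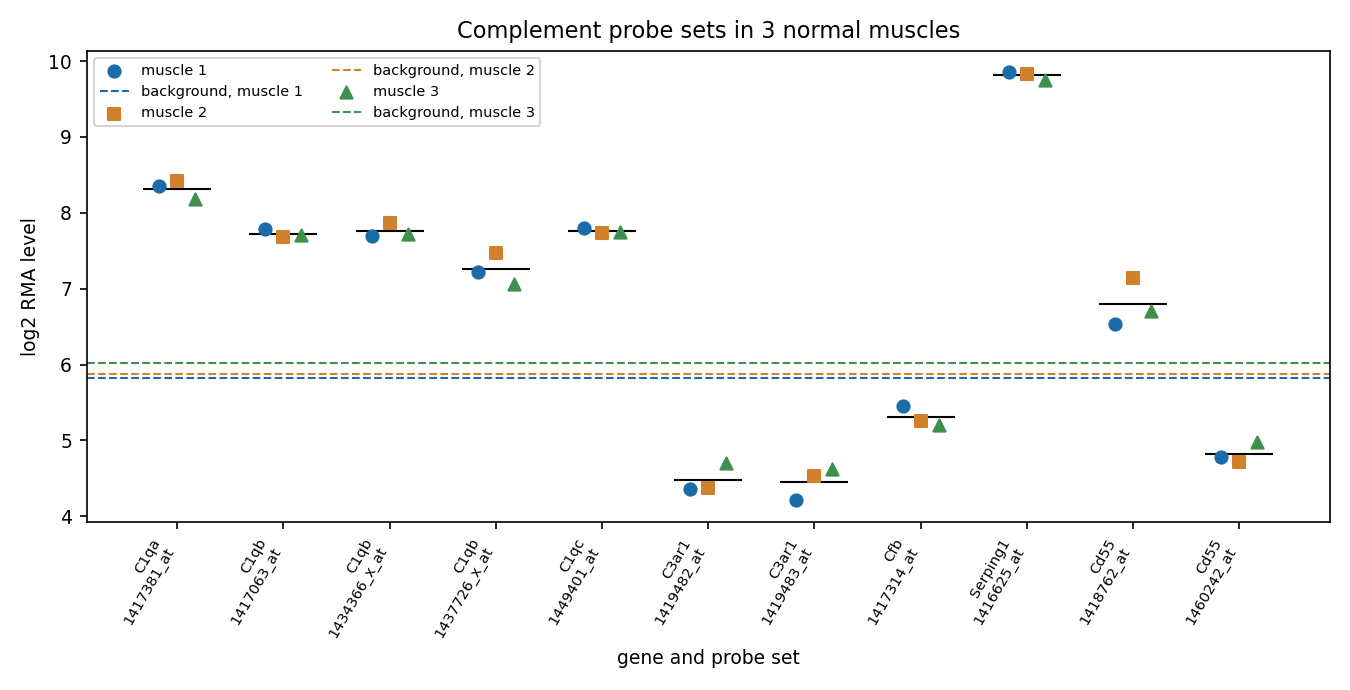
Log2 RMA level (y axis) of the 11 complement probe sets (x axis) in each of the 3 muscles, shown as points, with the mean as a short black line and the background level of each muscle as a dashed line. The C1q and Serping1 probe sets and 1 of the 2 Cd55 probe sets lie above all 3 background lines, and the C3ar1, Cfb and other Cd55 probe sets lie below them.

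In all, 7 of 11 member probe sets and 5 of 7 member genes were above background in every muscle, and the rest in none. Over all features the same was true of 51.3% of probe sets and of 58.5% of genes, and for so few members these shares are near the background and are no result about them. The probe set that carries both C4a and C4b, genes of the component that follows C1q in the classical pathway, was at 7.48, 7.15 and 7.42 in muscles 1, 2 and 3. It was above background throughout, but which of the pair it measured cannot be told apart.

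No member was found to vary between muscles more than other transcripts of like level. The variance of each probe set was set against the variance that limma fitted at its level, over all 11579 probe sets above background in at least 1 muscle. By limma's variance test with Benjamini-Hochberg adjustment, 0 of the 7 member probe sets above background varied in excess, against 0.147% of all probe sets tested. At an unadjusted p under 0.05 there was 1 of the 7, the Cd55 probe set 1418762_at, for which limma's adjusted p was 0.98. Over all probe sets tested 586 of 11579 reached it. Its SD of 0.31 stood against a fitted SD of 0.13. The adjusted p of the other members was between 0.98 and 1.00 by the same limma test, and C1qc had the smallest SD relative to the fit, 0.036 against 0.103. No member had a range of 1 or more, against 0.691% of all probe sets tested.

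These 3 arrays could have shown only large differences for single members. If 1 muscle alone had departed, the variance test would have called Serping1 at a departure of 0.83, a 1.78-fold change. For C1qa the departure needed was 1.24 and for the Cd55 probe set 1.87. The largest departures measured were 0.09, 0.21 and 0.53 for the same probe sets.

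**Figure D2:**
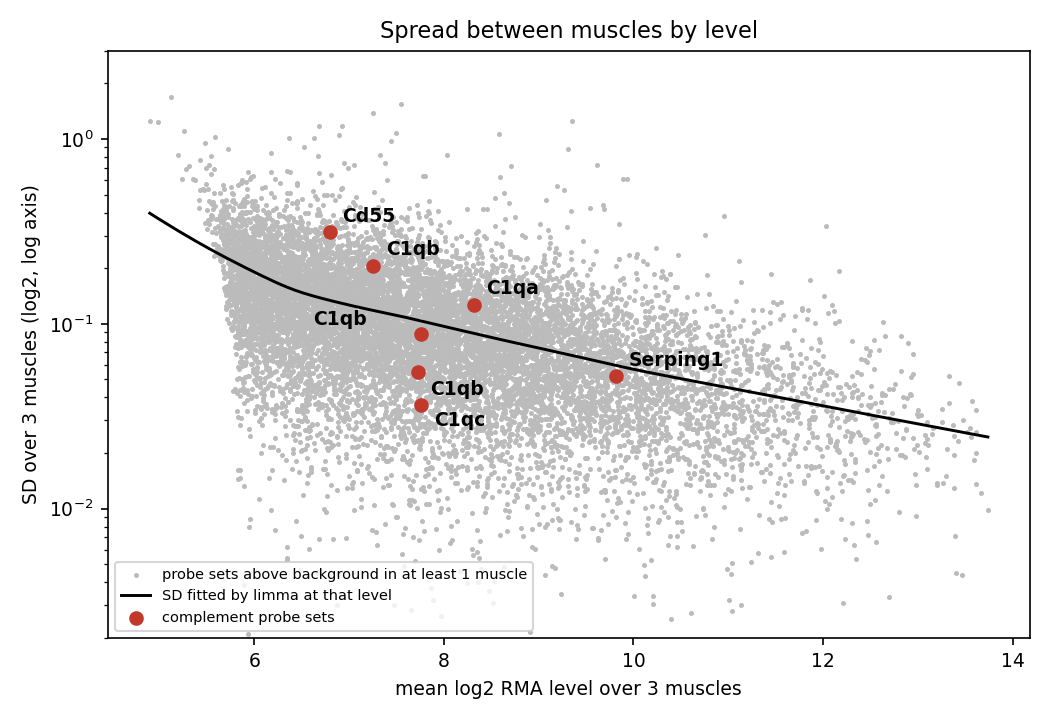
SD over the 3 muscles (log axis) against the mean log2 RMA level for the 11579 probe sets above background in at least 1 muscle, with the SD fitted by limma as a line and the 7 complement probe sets in red. The Cd55 probe set, at an SD of 0.31, 1 C1qb probe set, at 0.21, and C1qa, at 0.13, lie above the line but within the cloud of other probe sets.

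Muscle 3 lay below the average of the other 2 muscles for each of the 7 member probe sets above background. It was the lowest sample for only 3 of the 7, and for 5395 of all 11579 probe sets tested. Departure here means how far a sample lies from the average of the remaining samples. In muscle 3 the members departed by between -0.28 for C1qb probe set 1437726_x_at and -0.02 for C1qc, with a median of -0.09. The median over all 11579 probe sets was -0.04. A positive departure in muscle 3 was found for 0 of 7 members, and for 38.2% of all probe sets tested. In muscle 2 the median departure of the members was 0.15, with 5 of 7 positive, against a median of 0.01 and 53.6% positive over all. In muscle 1 the values were 0.05 and 4 of 7, against 0.03 and 59.6%. Of the 7 probe sets, 5 belong to C1q and 3 of those to 1 gene, so they are not independent, and the shifts of the list were not tested.

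Markers of macrophages were measured too. Of 19 measured macrophage genes, 10 were above background in all 3 muscles, 2 in some and 7 in none. Over all genes 58.5% were above it in all 3, so the count is near that share and is no result about macrophages. The surface receptor Adgre1 was at 8.44, 8.59 and 8.29 in muscles 1, 2 and 3, highest in muscle 2, whereas Fcer1g, a signalling subunit of Fc receptors, was at 7.40, 7.13 and 7.20, highest in muscle 1. Over the 16 macrophage probe sets above background in at least 1 muscle, the mean levels of muscles 1, 2 and 3 were 7.53, 7.53 and 7.50. Their median departures were 0.00, 0.09 and -0.07, against -0.04 in muscle 3 over all probe sets. In muscle 3, 4 of the 16 were positive. These were 1 probe set of Laptm5 at 0.24, 1 of Csf1r at 0.21, Cd14 at 0.33 and Folr2 at 0.30. The other tested probe sets of Laptm5 and Csf1r were negative, at -0.14 for Laptm5 and at -0.16 and -0.04 for Csf1r. Cd14 was above background only in muscle 1, by 0.004, and Folr2 was above it in muscle 3 by only 0.07. The most negative departure of the 16 in muscle 3, -0.34, came from a Lyve1 probe set at -0.12 relative to background there. That probe set passed the background limit only through the other muscles, so its low value follows in part from that limit. It was kept in the median. The other Lyve1 probe set, above background in all 3 muscles, departed by -0.18 in muscle 3. Of 9 neutrophil genes only S100a8 was above background in all 3 muscles, with a departure of -0.25 in muscle 3. S100a9 and Ngp passed the background limit only through other muscles. Their low values in muscle 3 follow in part from that limit and are not read here. Itgam, which is also in the receptor list, and Fcgr1 were at 3.61 and 3.70 on average, below background in every muscle, as C3ar1 was. In whole tissue, fewer cells of a type and less RNA per cell cannot be told apart, and the part of macrophage content in the C1q values was not tested.

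**Figure D3:**
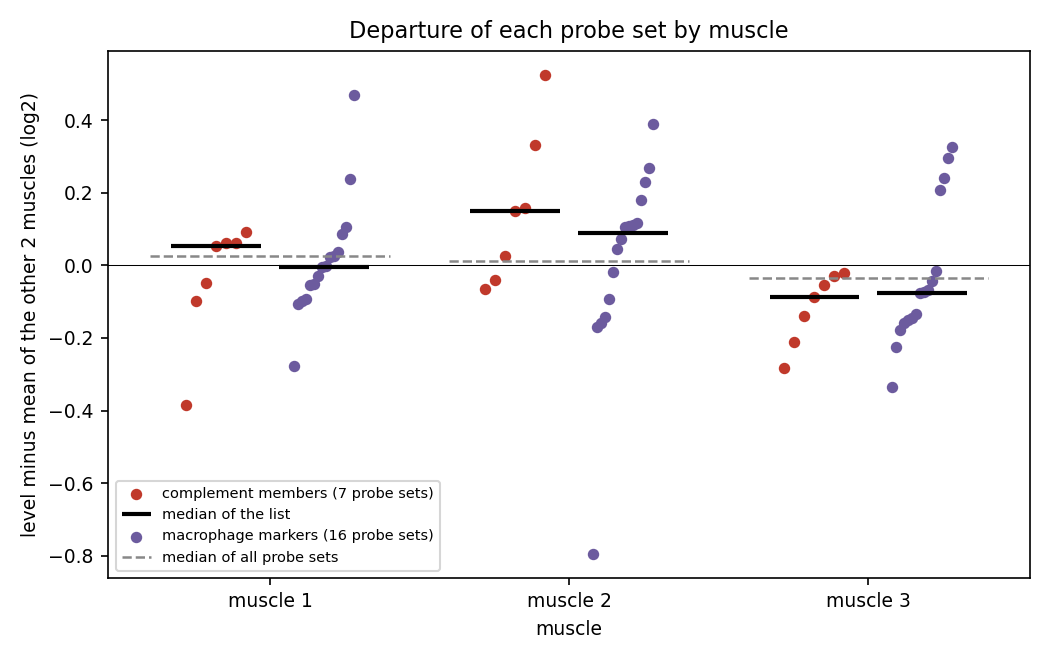
Departure of each probe set from the average of the remaining 2 muscles (y axis, log2) for the 7 complement probe sets in red and 16 macrophage probe sets in purple, with list medians as black bars and the median of all probe sets as a dashed line. In muscle 3 the 7 complement points lie below 0, between -0.28 and -0.02.

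The rest of the complement system was represented in part. Besides the members, 38 genes of the pathway with 51 probe sets were measured. Of these genes, 11 were above background in all 3 muscles, 3 in some and 24 in none, and 16 of the 51 probe sets were above it in all 3. Over all features 58.5% of genes and 51.3% of probe sets were above background in all 3 muscles, and 4521 of 12394 genes were in none. The separate lists below are small, and their counts were not tested against these shares. By limma's variance test 0 of the 20 probe sets tested varied in excess, with 0 at an unadjusted p under 0.05, against 586 of 11579 over all.

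Genes that act beside C1q in the classical pathway were all above background. The protease C1ra was at 7.02, 6.98 and 7.11 in muscles 1, 2 and 3. C1s1, the protease that it activates, was at 8.22, 8.31 and 8.26, and C2, from which the active enzyme of the pathway is built, was at 6.51, 6.53 and 6.57. The largest range among these was 0.14, for C1ra. C1qbp, which was named for binding C1q but resides mainly in mitochondria, averaged 10.34 ± 0.03 and 11.97 ± 0.02 by its 2 probe sets (SD, n = 3). A probe set that carries the names of both C1ra and its neighbour C1rb was below background in all 3 muscles, with a mean of 4.70 ± 0.99.

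Of 6 lectin pathway genes measured, 1 was above background in all 3 muscles (58.5% of all genes), 2 in some and 3 in none. Fcna, ficolin A, was above it throughout, at 7.16, 6.99 and 6.95 in muscles 1, 2 and 3. The mannose-binding lectins Mbl1 and Mbl2 averaged 4.82 and 3.71, and the protease Masp2 had means of 5.08 and 3.35. Masp1 and the scavenger receptor Colec12 were above background in only some muscles. For Masp1 the probe set 1455346_at was at 6.37, 6.04 and 5.93, of which the last was below background.

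The late pathway lay below background. All 6 measured genes of the membrane attack complex, Hc (the fifth component), C6, C8a, C8b, C8g and C9, were below background in every muscle. Their means ran from 3.28 for C8a to 5.57 for C8g. Over all genes, 4521 of 12394 were below background in every muscle. Properdin (Cfp), which stabilises the enzyme of the alternative pathway, lay at the background level, at 5.76, 5.93 and 5.89 in muscles 1, 2 and 3. Of 7 soluble regulators, 5 were below background in every muscle, among them Cfi at 4.06 and C4bp at 4.64, and 2, Clu and Vtn, were above it. The hepatocyte list had 12 of 13 genes below background in every muscle, against 4521 of 12394 over all genes. Alb was at 4.67, and Cyp2e1 alone was above background.

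Of 6 other inhibitors on the cell surface, 2 were above background in every muscle (58.5% of all genes) and 4 in none. Cd59a, which blocks the assembly of the attack complex, averaged 9.76 ± 0.07 and 8.40 ± 0.07 by its 2 probe sets (SD, n = 3). Cr1l, the rodent inhibitor also known as Crry, was at 8.73, 8.74 and 8.64 in muscles 1, 2 and 3. Cd46, whose expression in mice is largely limited to the testis, was below background at 5.04 ± 0.17. The others below it were Cd55b, Csmd1 at 2.81 ± 0.16 and Susd4 at 5.51 ± 0.13. Clusterin (Clu), a secreted inhibitor of the attack complex, was above background by all 4 of its probe sets, with means from 8.26 to 9.95. Vitronectin (Vtn) was at 7.95, 8.12 and 7.94 in muscles 1, 2 and 3 by one probe set and below background, at 5.06 ± 0.11, by the other.

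Most receptors resembled C3ar1 in lying below background. C5ar1 averaged 5.58 ± 0.14, Cr2 4.82 ± 0.15 and Vsig4 3.61 ± 0.14 (SD, n = 3). The integrin chains Itgam and Itgax, which form complement receptors with Itgb2, were below background, while Itgb2 itself lay just above it at 5.94, 6.01 and 6.15 in muscles 1, 2 and 3. With the background set at the 99th percentile Itgb2 was below it in all of them. Among the other complement genes that were above background in every muscle, it was the only one to change. Masp1, Colec12 and Cfp, above the lower limit in only some muscles, were also below the stricter limit in every muscle. Cd93, a surface protein of endothelial and myeloid cells once described as a C1q receptor, was at 8.80, 8.81 and 8.84 by one probe set and below background by the other, at 4.93 ± 0.11. Of 12 endothelial genes, 10 were above background in every muscle, against 58.5% of all genes.

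**Figure D4:**
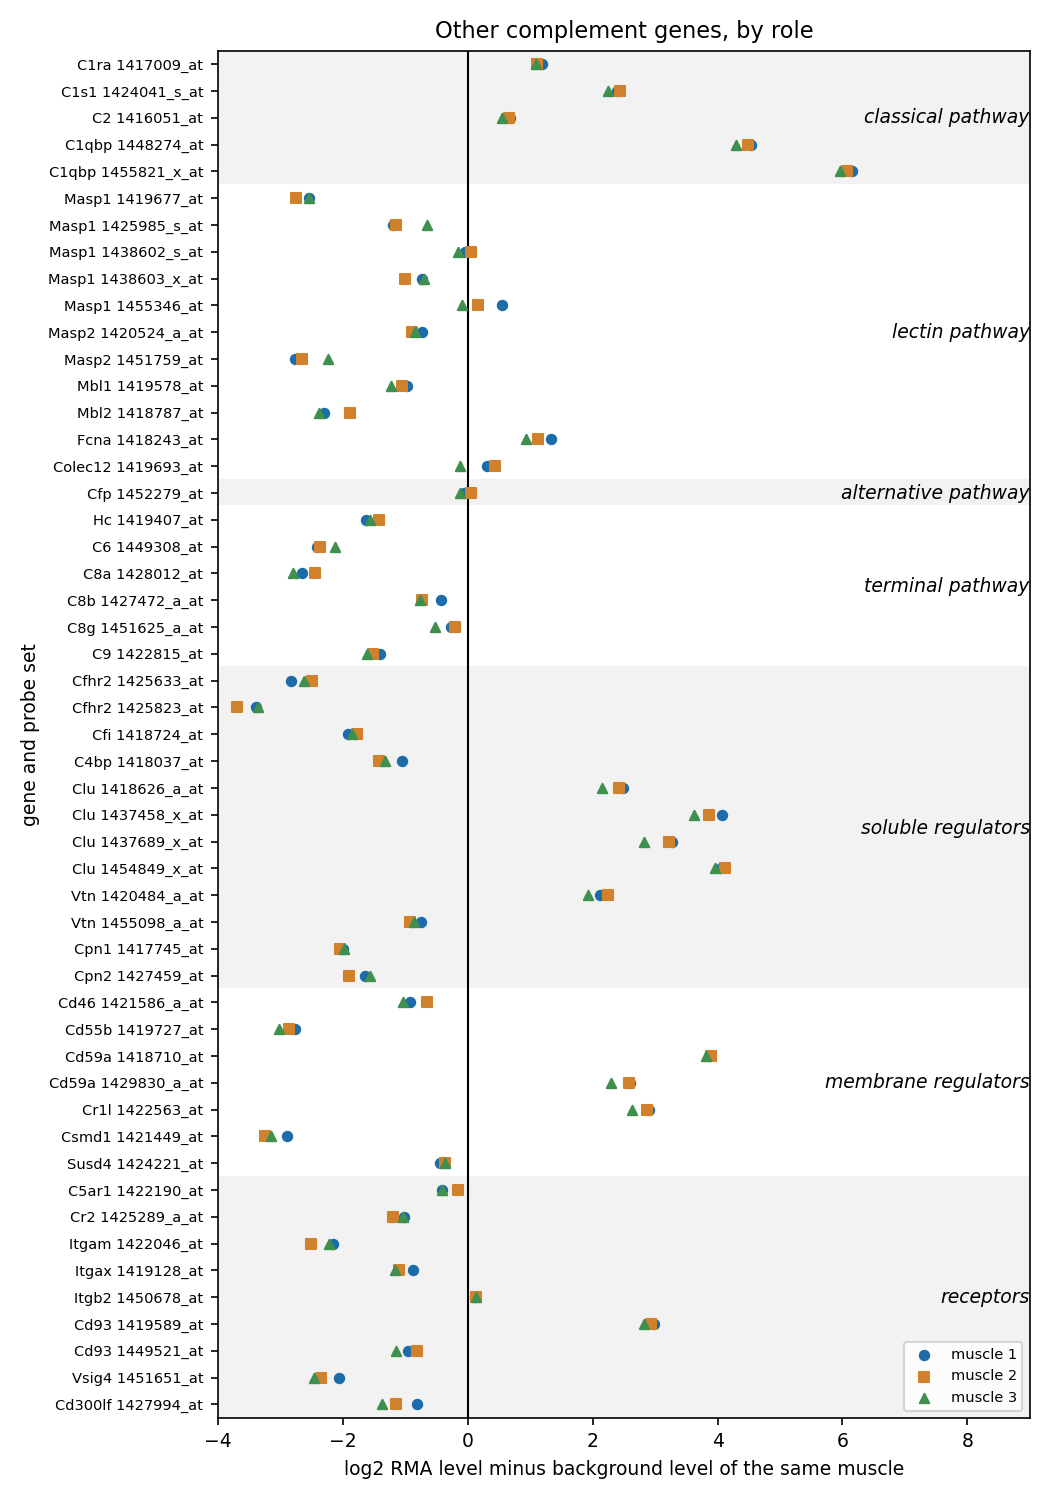
Log2 RMA level minus the background level of the same muscle (x axis) for the 51 probe sets of 38 other complement genes (y axis, grouped by role), with 1 point per muscle. Points right of 0 are above background: the classical pathway list, which includes C1qbp, lies wholly to the right and the terminal pathway wholly to the left. Probe sets that carry several gene names are not shown.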

How the data were processed

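RNA of 3 normal muscles was hybridised to 1 array each, and 500 ng of total RNA was amplified and labelled with biotin, per the labels' protocols. What the authors deposited are RMA values on the log2 scale, per the submitters' processing notes. RMA corrects background, quantile-normalizes the arrays and summarises probes, and it hides a change shared by most genes. Which version was used, and on which arrays together, is not given in the sources.

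Of 22690 probe sets, 20393 carried 1 gene in GEO's platform annotation, 691 several and 1606 none. Entrez numbers matched RefSeq (GRCm38.p6) for 20364, and no symbol differed. Probe sets with several genes entered no gene value. For each probe set above background in at least 1 muscle, the variance (2 degrees of freedom) was compared by a one-sided F test with limma's prior (limma 3.58.1, R 4.3.3, robust, with a trend on level), adjusted by Benjamini-Hochberg at 0.05. The limma package supplied the prior only. The F test, called limma's variance test here, was computed from that prior and was tested on simulated data. Python 3.11.15, pandas 2.3.3 and matplotlib 3.10.9 did the rest.

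Members and lists were chosen with earlier results of these data known. Named were all members, and other complement genes above background in all 3 muscles; Masp1, Colec12, genes named as below background and Itgb2's partners were chosen after their values were seen, and marker genes are examples from their lists. Alternatives were another normalization or centring, a value per gene, no probe sets matching several transcripts, other background and range limits, other limma settings and leaving out each muscle.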

Additional observations from a re-analysis of the deposited data

How the results depend on the processing

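The call that 0 members varied in excess, and that 0 other complement genes did, held under every alternative run. The lowest adjusted p of a member by limma's variance test was 0.12, for Cd55 without muscle 3, and at least 0.81 otherwise. The count of member genes above background, 5 of 7, became 4 of 7 on averaging the probe sets within each gene. With averaging, Cd55 was below background in all but 1 muscle. The 16 other complement probe sets above background became 8 without probe sets matching several transcripts, where fewer are tested. At a limit of 1.5-fold, 1 member, Cd55, passed the range limit in place of 0. The median departure of the members in muscle 1, 0.05, was -0.05 with no filter and -0.07 without muscle 3. That of muscle 2, 0.15, fell to 0.03 with no filter, and also to 0.03 without probe sets matching several transcripts. Those of muscles 2 and 3 kept their signs in all settings. Over all probe sets, 10456 were above background, and 6391 genes with averaging and 6703 without probe sets matching several transcripts, where fewer features are counted. The 17 variance calls became 8 at the 99th percentile, 6 with the highest probe set per gene, 31 after quantile normalization, 0 with averaging, without a trend or without the robust fit, and 40 to 44 when a muscle was left out. At an unadjusted p under 0.05 there were 314, 402 and 488 for the settings with 0 calls. The 80 probe sets with a range of at least 1 became 18 with averaging, 30 with the highest probe set, 142 with no filter, 474 at 1.5-fold, and between 4, without muscle 3, and 61 with a muscle left out. Apart from fewer or more features tested, the cause of these shifts was not tested. An alternative list of background genes from earlier processing was not run. No paired analysis was possible because the samples form 1 group. Of 100 member levels recomputed, 2 moved by more than 1 SD, both under averaging.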
